A study of Mus musculus with 6 samples.

Results

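The histone deacetylases other than the class IIa enzymes, together with the NCOR-SMRT corepressor subunits, were examined in cytotoxic T cells with and without a mutant of the class IIa deacetylase HDAC7. The members are Hdac1, Hdac2, Hdac3 and Hdac8 (class I), Hdac6 and Hdac10 (class IIb), and Ncor1, Tbl1x and Tbl1xr1. They were found as all array probe sets that the platform annotation gives to exactly 1 of these 9 symbols. This gave 18 probe sets for 8 genes, of 45101 on the array. No probe set with the symbol Ncor1 was used here, so that gene has no value below.

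The cells were P14 T cells from C57Bl/6 mice, which carry a transgenic receptor for gp33, a viral peptide. Dissociated spleens were stimulated with that peptide for 24 h, and the cultures then received a retrovirus encoding HDAC7 that cannot be phosphorylated, fused to GFP. Cells were sorted on GFP into 3 samples that were positive, and so carried the mutant, and 3 that were negative, labelled as the control of the infected cultures. A control with empty vector was not analysed here, so carrying the virus and carrying the mutant cannot be told apart. The labels give neither the age of the mice nor whether the replicates came from separate animals, so p-values measure the spread between these samples only. Each sample was read on 1 Affymetrix array, and the number of arrays limits the precision.

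Histone deacetylases remove acetyl groups from histones and other proteins. HDAC1 and HDAC2 are close paralogs that serve as the catalytic subunits of the SIN3, NuRD, CoREST and MiDAC complexes. HDAC3 is the catalytic subunit of the complex built on NCOR1 or SMRT with the beta-propeller proteins TBL1X and TBLR1 (Tbl1xr1). Class IIa enzymes such as HDAC7 have little deacetylase activity of their own and recruit this HDAC3 complex in the nucleus. Their phosphorylation leads to binding of adaptor proteins and export to the cytoplasm, so a form that cannot be phosphorylated stays nuclear. HDAC8 deacetylates the cohesin subunit SMC3, HDAC6 acts on tubulin and other cytoplasmic proteins, and HDAC10 acts on polyamines.

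Upstream sequences are shown for Hdac6, which rose in the mutant cells, and its class I relative Hdac2, whose estimates were below 0 without passing the threshold. They are RefSeq sequences of build GRCm38.p6, and 6 of the 9 members matched the promoter table. Hdac1, Hdac3 and Hdac10 did not match, so Hdac6 is the only member that rose with a sequence here. A link between promoter sequence and change was not tested. Each is the 250 bases before the annotated start, 5′ to 3′ on the gene's strand, with GC boxes (GGGCGG on either strand) and CCAAT boxes (CCAAT on either strand) in capitals. The Hdac6 window lies at chrX:7947890-7948139 on the minus strand and the Hdac2 window at chr10:36974294-36974543 on the plus strand.
Hdac6: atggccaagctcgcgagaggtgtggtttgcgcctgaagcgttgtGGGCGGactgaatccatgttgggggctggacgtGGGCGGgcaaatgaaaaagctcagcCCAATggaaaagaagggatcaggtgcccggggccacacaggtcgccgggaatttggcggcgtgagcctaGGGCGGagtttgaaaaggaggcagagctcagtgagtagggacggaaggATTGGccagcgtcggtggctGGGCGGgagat
Hdac2: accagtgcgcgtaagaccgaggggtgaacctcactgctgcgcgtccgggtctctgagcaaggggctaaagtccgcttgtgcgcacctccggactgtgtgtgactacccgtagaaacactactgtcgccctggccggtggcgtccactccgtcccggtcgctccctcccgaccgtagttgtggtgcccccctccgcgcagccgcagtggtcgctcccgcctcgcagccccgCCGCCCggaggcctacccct
The Hdac6 window holds 4 GC boxes and 2 CCAAT boxes, and 0 of them overlap. Of 32851 promoter windows of the same length, 4.09% hold at least 4 GC boxes and 10.1% at least 2 CCAAT boxes. The Hdac2 window holds 1 GC box and 0 CCAAT boxes, and 32.7% of windows hold at least 1 GC box. Tbl1x and Tbl1xr1 each have 1 GC box, and the Hdac8 window has 0 GC boxes and 2 CCAAT boxes. The Ncor1 entries hold 0 and 2 GC boxes. The E-box CACGTG, present in 6.02% of all windows, had 0 matches in the windows of Hdac2, Hdac6, Hdac8, Tbl1x, Tbl1xr1 and the Ncor1 entries. A match is a run of letters and not a shown site of binding, and a missing match says only that these letters are not in the window.

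Signals are log2 values as deposited. The Hdac7 probe set 1420812_at read 4.86, 4.83 and 4.81 in GFP negative samples 1 to 3 and 8.09, 8.18 and 8.17 in GFP positive samples 1 to 3, so every sample matched its label on this probe set. The other Hdac7 probe set, 1420813_at, was lower in every GFP positive sample (change -0.55), so the match rests on 1420812_at. Array medians were 1.72, 1.69 and 1.71 in GFP negative samples 1 to 3. They were 1.66, 1.64 and 1.62 in GFP positive samples 1 to 3, all below the GFP negative ones. Control probe sets for the bacterial TrpnX sequence averaged 0.60 to 0.72 per array, so signals near that level lie close to background. Of 8 cytotoxic T cell markers tested, 6 rose (Cd8a, Cd8b1, Cd3e, Cd3g, Gzma and Ifng), 1 fell (Gzmb) and Cd3d did not pass. Their group means lay between 3.15 (Ifng in GFP negative samples) and 12.58 (Gzmb in GFP negative samples). Of 22 markers of B, myeloid, NK, CD4 T, dendritic, erythroid and stromal or endothelial cells, 11 lay under the filter on dim probe sets, 1 rose (Pecam1) and 2 fell (Flt3 and Zbtb46). Above the filter were the B cell markers Cd79a, Cd79b and Pax5, the myeloid markers Lyz2 and Csf1r, Cd4, the dendritic markers Flt3, Zbtb46 and Siglech, and Col1a2 and Pecam1, of which Cd79b had the highest mean (4.43). The NK markers (Ncr1 and Klra8) and Hba-a1 lay under it, as did Ms4a1, Adgre1, Cd14, Itgam, S100a8, Foxp3, Col1a1 and Cdh5. The summed linear signal of these 22 was 93.8 to 98.6 in GFP negative and 90.7 to 103.5 in GFP positive samples, and the part of these 22 and of the T cell markers in the results below was not tested.

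Setting the GFP positive against the GFP negative samples addresses whether transcripts of the other deacetylases and their corepressor differ when the HDAC7 mutant is present. Hdac10 was 2.04-fold higher, Hdac6 1.45-fold higher and Hdac1 1.40-fold higher in cells with the mutant. Both readable Hdac2 probe sets were lower in all 3 GFP positive samples, by 1.21-fold and 1.28-fold, without passing the threshold. Transcripts of the HDAC3 complex, Hdac3, Tbl1x and Tbl1xr1, differed by at most 1.22-fold, and none of their 9 tested probe sets passed. In sorted cell samples, fewer cells that express a gene and less RNA per cell cannot be told apart.

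Of the 18 probe sets, 15 passed the filter on dim signals and were tested, 3 lay under it (1 each of Hdac2, Hdac10 and Tbl1xr1), and each of the 8 genes kept at least 1. By limma, with Benjamini-Hochberg adjustment over all 27022 probe sets tested and a threshold of 0.05, 3 of the 15 rose, 0 fell (2 were lower at an unadjusted p under 0.05) and 12 did not pass. Over the whole array 19.3% rose and 13.2% fell (32.5% in all), so the share of members that rose lies near the background. With the replicate number as a block the members again gave 3 and 0, beside 19.2% higher and 12.9% lower over the array (32.1% in all). Counting non-overlapping groups, 4 of the 15 were higher in every GFP positive sample and 2 lower, where the array gives 25.9% and 22.2% (48.2% in all). The median change of the 15 was -0.10, beside -0.02 for all probe sets tested, and the median absolute change was 0.21 beside 0.24. No test of the members against the other probe sets was run.

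**Figure D1:**
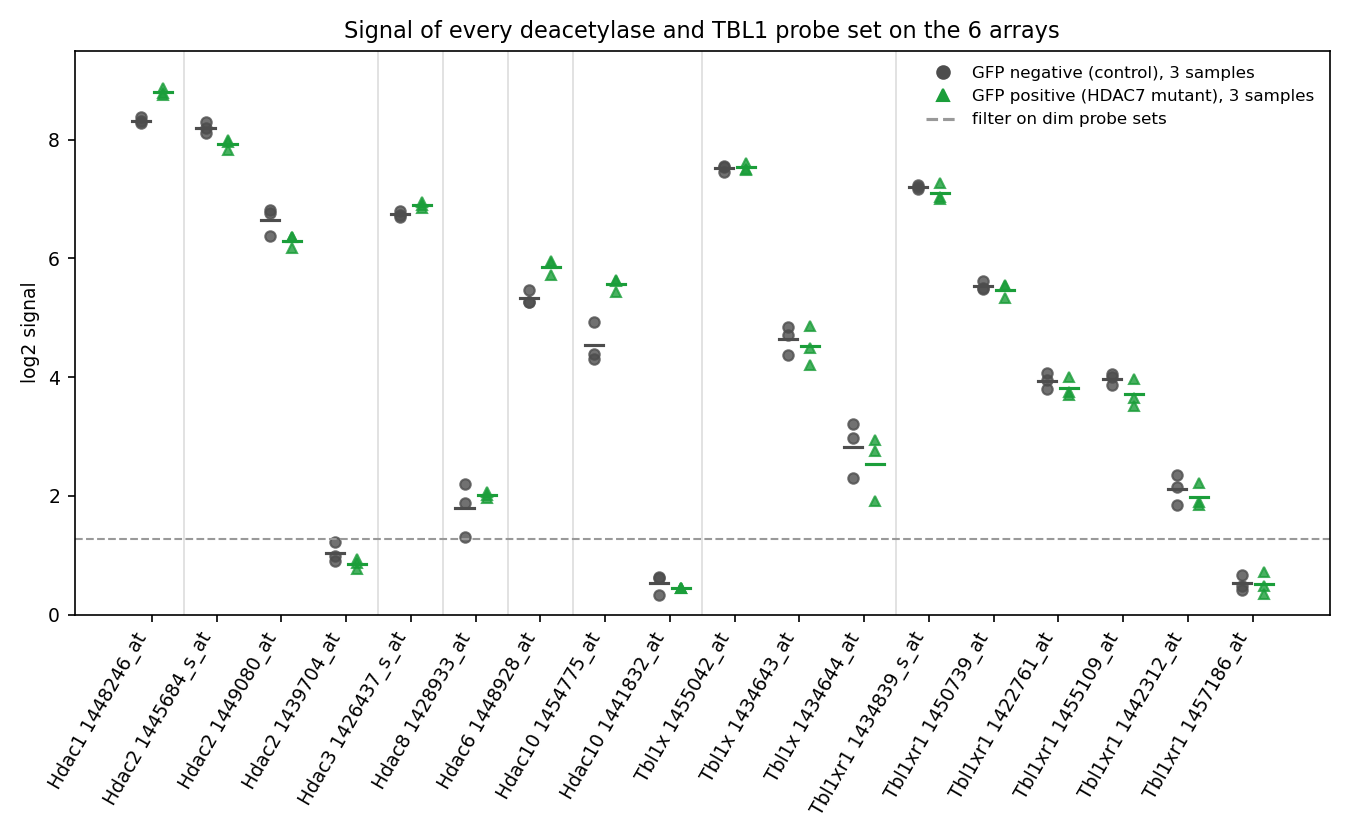
Log2 signal of the 18 probe sets on the 6 arrays, with 3 GFP negative samples (grey circles) and 3 GFP positive samples (green triangles) per probe set. Short bars are group means and the dashed line is the filter on dim probe sets at 1.27. The groups separate upward for Hdac1, Hdac3, Hdac6 and 1454775_at of Hdac10, and downward for the 2 brighter Hdac2 probe sets.

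Hdac1 has 1 probe set, 1448246_at, which read 8.28, 8.32 and 8.38 in GFP negative samples 1 to 3. In GFP positive samples 1 to 3 it read 8.88, 8.79 and 8.76. Every GFP positive sample lay above every GFP negative one, and the spread within each group (SD 0.05 and 0.06, n = 3) was small beside the gap. The change was 0.49 ± 0.08 (SE, limma adjusted p = 0.00358), larger than the absolute change of 78.3% of the probe sets tested. RefSeq also lists a pseudogene, Hdac1-ps, and the array signal may hold transcripts of both.

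Hdac2, the paralog that shares the HDAC1 complexes, had estimates below 0 that did not pass. Its brightest probe set, 1445684_s_at, read 8.20, 8.29 and 8.11 in GFP negative samples and 7.97, 8.0 and 7.84 in GFP positive samples. A second, 1449080_at, read 6.82, 6.77 and 6.37 against 6.36, 6.18 and 6.35. Both were lower in every GFP positive sample, although on the second GFP negative sample 3, at 6.37, lay barely above the highest GFP positive sample, at 6.36. The changes were -0.27 ± 0.09 (SE, limma adjusted p = 0.0563) and -0.36 ± 0.13 (limma adjusted p = 0.0765), with 95% intervals from -0.48 to -0.06 and from -0.67 to -0.05 before adjustment for many tests. The remaining Hdac2 probe set, 1439704_at, lay near background, at 0.77 to 1.22 over the 6 samples, and was not tested.

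The Hdac2 call depends on the processing. With each gene represented by its brightest probe set and adjustment over 13194 genes, 1445684_s_at passed (limma adjusted p = 0.0385). Over 15 alternative settings its change ranged from -0.38 to -0.22 with adjusted p from 0.017 to 0.241, and it passed in 6. The second probe set ranged from -0.50 to -0.27 and passed in 4 of 14 settings. The direction was the same in all of these settings.

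**Figure D2:**
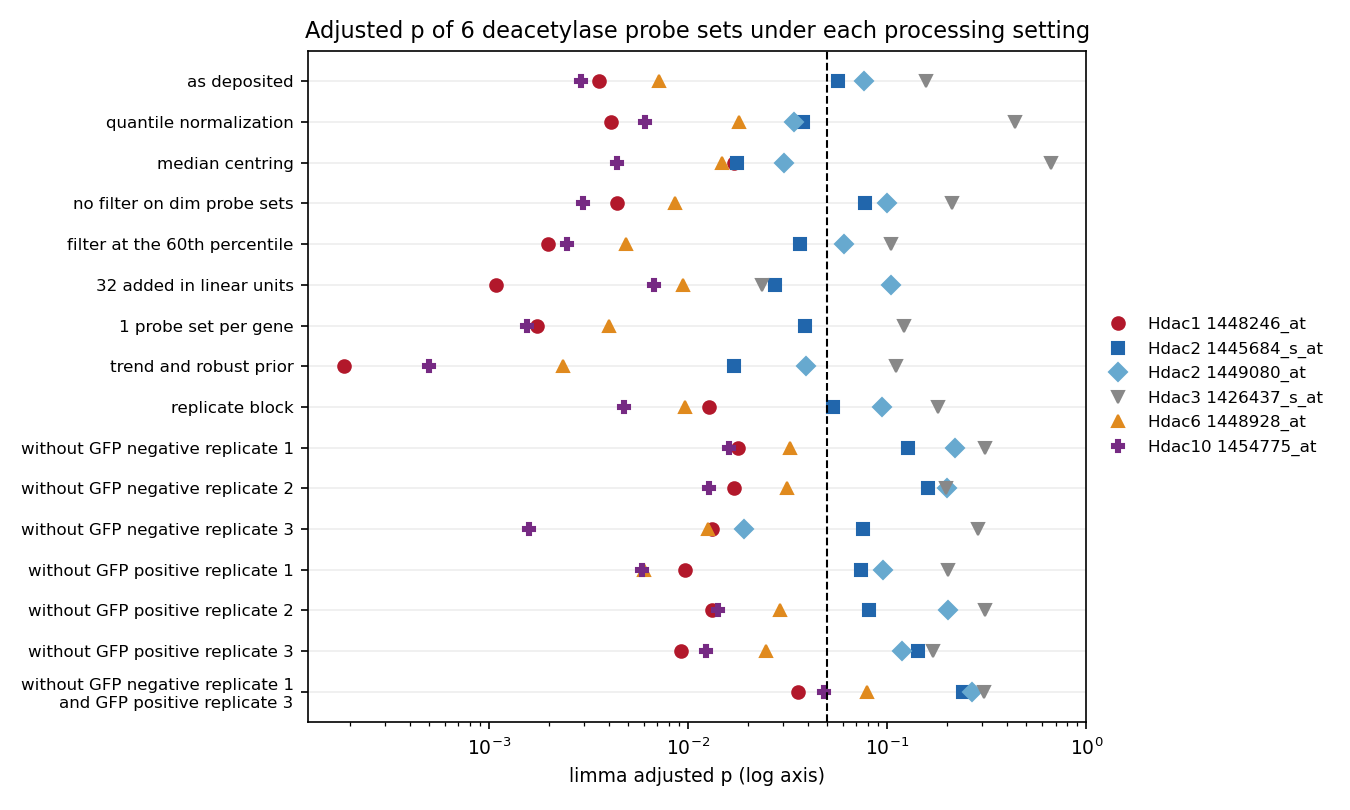
Limma adjusted p on a log axis for 6 deacetylase probe sets, one row per processing setting, with the threshold of 0.05 as a dashed line. Hdac1 and Hdac10 stay left of the line in every row and Hdac6 in all but the last, where it reaches 0.0788. The 2 Hdac2 probe sets cross the line between settings.

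A difference taken within an array does not depend on how arrays are scaled to each other by a constant. The Hdac1 minus Hdac2 (1445684_s_at) difference, centred on its GFP negative mean, was -0.05, -0.10 and 0.14 in GFP negative samples 1 to 3. It was 0.79, 0.67 and 0.81 in GFP positive samples 1 to 3. The shift was 0.75 (SD 0.13 and 0.07, n = 3 each). The 2 groups had to separate, because Hdac1 was higher and both Hdac2 probe sets lower in every GFP positive sample. Against the second Hdac2 probe set the shift was 0.84, and Hdac1 against Hdac3 shifted by 0.32. In an exact two-sided permutation test each gave p = 0.1, the smallest that 3 samples against 3 can give, so this design cannot reach 0.05. For Hdac1 against Hdac2 that p was fixed by the separation of the single probe sets and adds nothing to them. These pairs were chosen after the values were seen, among 5 pairs computed, and p stayed at 0.1 after adjustment over the 5.

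Hdac3 encodes the catalytic subunit of the NCOR-SMRT complex. Its probe set 1426437_s_at read 6.70, 6.79 and 6.74 in GFP negative samples and 6.91, 6.96 and 6.86 in GFP positive samples. The groups did not overlap, but the change was small, at 0.16 ± 0.08 (SE, limma adjusted p = 0.157), with a 95% interval from -0.02 to 0.35. It passed in 1 of 15 alternative settings, after adding 32 to all linear values (0.13, limma adjusted p = 0.0234). Centring arrays on their medians left 0.05.

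Hdac8, the cohesin deacetylase gene, had a low signal on 1428933_at, at 2.20, 1.89 and 1.31 in GFP negative and 2.06, 1.97 and 2.02 in GFP positive samples. The groups overlapped, and GFP negative sample 3 was the lowest of all 6. The change was 0.22 ± 0.20 (SE, limma adjusted p = 0.441), with an interval from -0.26 to 0.69, so neither a rise nor a fall of that size can be read from this signal. Without GFP negative replicate 3 the estimate turned to -0.03, and without GFP negative replicate 1 it was 0.42.

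The class IIb enzymes both rose. Hdac6, the cytoplasmic tubulin deacetylase gene, read 5.26, 5.26 and 5.47 in GFP negative samples and 5.71, 5.92 and 5.96 in GFP positive samples on 1448928_at. All GFP positive samples were above all GFP negative ones, by 0.53 ± 0.11 (SE, limma adjusted p = 0.00716). With 32 added in linear units the change was 0.32 and still called. Without GFP negative 1 and GFP positive 3 together it was 0.45 and lost its call (limma adjusted p = 0.0788).

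Hdac10, the polyamine deacetylase gene, had the largest change of the members. Its probe set 1454775_at read 4.38, 4.31 and 4.92 in GFP negative samples and 5.44, 5.62 and 5.64 in GFP positive samples. GFP negative 3 stood above the other controls yet below every GFP positive sample. The change of 1.03 ± 0.16 (SE, limma adjusted p = 0.0029) was larger than that of 95.7% of probe sets tested. It was 0.52 with 32 added in linear units, and it passed in all 15 alternative settings (adjusted p up to 0.0482). The other Hdac10 probe set, 1441832_at, read 0.33 to 0.64 in all 6 samples, at background, and says nothing on the change.

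The TBL1 proteins are the WD40 subunits that link the HDAC3 complex to histones and to the ubiquitin machinery for corepressor exchange. Tbl1x was best read by 1455042_at, at 7.45, 7.55 and 7.56 in GFP negative and 7.49, 7.51 and 7.61 in GFP positive samples. The groups overlapped, and the change was 0.01 ± 0.08 (SE, limma adjusted p = 0.911), with a 95% interval from -0.18 to 0.21. The dimmer Tbl1x probe sets varied more between samples. On 1434643_at the values were 4.37 to 4.85 and 4.21 to 4.86, and on 1434644_at 2.30 to 3.20 and 1.92 to 2.94, in GFP negative and GFP positive samples. Both were lowest in GFP positive sample 1, and their changes of -0.12 and -0.29 did not pass. Without GFP positive replicate 1 the estimate of 1434644_at turned to 0.02.

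Tbl1xr1 has 6 probe sets, of which 5 were tested and 0 passed. The brightest, 1434839_s_at, read 7.24, 7.18 and 7.20 in GFP negative and 7.04, 7.0 and 7.27 in GFP positive samples. GFP positive 3 was the highest of the 6 and the other 2 GFP positive samples the lowest, so the groups overlapped (change -0.10 ± 0.10, SE, limma adjusted p = 0.445). The other tested probe sets had changes of -0.07 (1450739_at), -0.12 (1422761_at), -0.13 (1442312_at) and -0.26 (1455109_at). Of these, 1442312_at was dim, with a mean of 2.05. All 5 estimates lay below 0, and 1455109_at passed in 1 setting, without GFP positive replicate 1 (-0.39, limma adjusted p = 0.0278). The 95% intervals of the 5 together run from -0.57 to 0.23. The remaining probe set, 1457186_at, was at background, between 0.35 and 0.71.

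**Figure D3:**
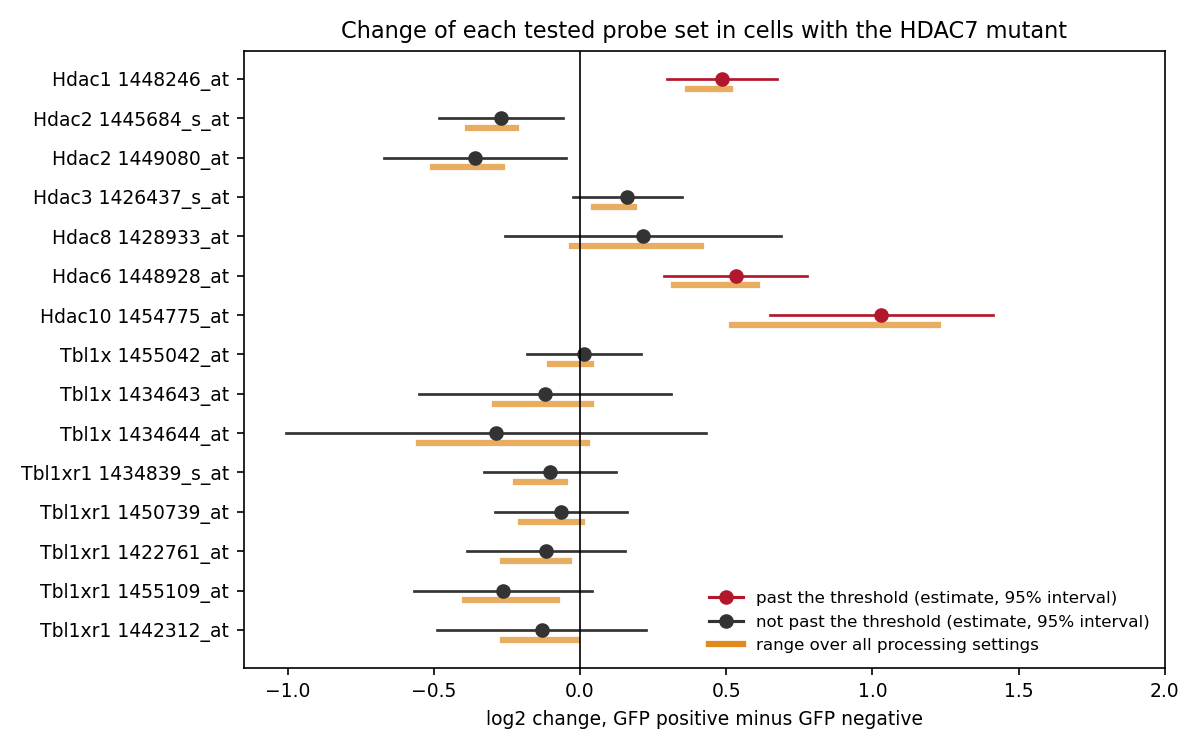
Log2 change (GFP positive minus GFP negative) of the 15 tested probe sets, as estimate and 95% interval from limma, red where past the threshold. Orange bars give the range over all processing settings. Hdac10, Hdac6 and Hdac1 lie above 0 with their whole interval (0.65 to 1.41, 0.29 to 0.78 and 0.30 to 0.68), while those of Tbl1x and Tbl1xr1 all include 0.

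Partner and pathway genes were read from lists, each gene by its brightest probe set in the same limma fit. Of 93 tested list entries 40 rose, 7 fell and the rest did not pass (50.5% called), where 37.5% of the 13194 genes tested were called, 22.6% higher and 14.9% lower. Their median change was 0.24, and that of all genes -0.02. The lists were not matched to all genes for signal level, on which the called share depends. Of probe sets, 46% were called with a filter at the 60th percentile, beside 32.5% with the filter used here. How far signal level accounts for the difference was not tested. The total called fell from 47 to 20 without GFP negative 1 and GFP positive 3 together, a setting in which calls over the array also fell, from 32.5% to 16.3% of probe sets.

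Among the HDAC1 and HDAC2 complexes, 71.4% of SIN3, 70% of CoREST and MiDAC and 33.3% of NuRD genes were called, beside 37.5% of all genes. In the SIN3 complex 9 of 14 genes rose, 1 fell (Sap30, from 8.08 to 7.64) and 4 did not pass, with a median of 0.44. Arid4b and Arid4a, which encode related DNA-binding subunits, rose by 0.78 and 0.69 (0.51 and 0.44 with 32 added in linear units). Ing1, a reader of methylated histone H3, rose by 0.70 and Phf12 by 0.69 (0.19 with 32 added in linear units). Another Ing1 probe set changed by -0.29 and a second of Phf12 by -0.20. The number called was 4 without GFP negative 1 and GFP positive 3.

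In CoREST and MiDAC, 6 of 10 rose and 1 fell (Rcor2, from 3.38 to 2.96), with a median of 0.41. Mideas, 1 of the 6, rose by 0.44, while its other tested probe sets changed by -0.30 to -0.09. Phf21a, which encodes BHC80, a reader of unmethylated histone H3, read 4.77, 4.99 and 4.62 in GFP negative and 6.09, 6.30 and 6.45 in GFP positive samples. It rose by 1.49 ± 0.13 (SE, limma adjusted p = 0.00031; 0.88 with 32 added), and its other probe sets changed by 0.01 to 1.74. The scaffold genes Rcor1 and Rcor3 rose by 0.47 and 0.86 and the zinc finger gene Zmym2 by 0.56, while other probe sets of Rcor3 changed by 0.09 to 0.85 and 1 of Rcor1 by -0.03. With 32 added in linear units Rcor3 and Zmym2 rose by 0.32 and 0.36. The number called was 4 without GFP negative 2 or without GFP positive 2. With the replicate block Dnttip1 lost its call (limma adjusted p = 0.0684) and Hmg20b gained one (0.0486).

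In NuRD 33.3% of genes were called, near the 37.5% of all genes tested. With a median of 0.16, 4 of 12 rose and 0 fell. They were the remodelling ATPase genes Chd3 (0.49) and Chd4 (0.49), Gatad2b (0.56, or 0.37 with 32 added) and Mta3 (0.33), while other probe sets of Gatad2b changed by -0.17 to 0.36. Mta3 lost its call with quantile normalization (limma adjusted p = 0.0678), with median centring (0.21, adjusted p = 0.0902) and without any one sample but GFP positive 1. At an unadjusted p under 0.05, 1 NuRD gene was lower. Without GFP negative 1 and GFP positive 3 together 0 NuRD genes were called, and 7 were called with a robust prior that follows intensity.

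Of the NCOR-SMRT partners and recruiting factors, 5 of 19 rose, 2 fell and 12 did not pass, with a median of -0.07. The 36.8% called lies near the 37.5% of all genes tested. Coro2a, which encodes an actin-binding subunit of the NCOR complex, read 7.30, 7.41 and 7.44 in GFP negative and 4.01, 4.44 and 5.01 in GFP positive samples. This was the largest fall in all the lists, -2.90 ± 0.22 (SE, limma adjusted p = 2.1e-04; -1.86 with 32 added). Kdm4a, a histone demethylase gene, rose by 0.68 and Spen, a corepressor of Notch signalling, by 0.48 (0.39 and 0.16 with 32 added), Spen losing its call without GFP negative 1 and GFP positive 3. Bcl6, a repressor that recruits SMRT and NCOR, read 1.00 and 2.11 (change 0.10 with 32 added). Its control mean lay under the filter of 1.27, so it was tested only through the GFP positive samples and had to differ; it is 1 of the 5 counted as risen. Gps2, a core subunit named here for its role, read 4.23 ± 0.04 and 4.71 ± 0.43 (SD, n = 3) and did not pass (limma adjusted p = 0.0918). The number called was 3 without GFP negative 1 and GFP positive 3. With the replicate block Nr1d1 lost its call (limma adjusted p = 0.0624) and Rxra gained one (0.0433).

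Among the related deacetylases, Hdac5 of class IIa fell from 5.06 ± 0.09 to 3.45 ± 0.03 (SD, n = 3; change -1.61, limma adjusted p = 8.6e-05; -0.61 with 32 added). Hdac4 probe sets differed, with changes of 0.25, 0.52 (passed, 0.19 with 32 added) and -0.07, and Hdac9 did not pass (-0.17). For Hdac7 itself 1420812_at rose by 3.32 and 1420813_at fell by 0.55. Of the sirtuins and Hdac11, 1 of 8 rose, Sirt7 (0.36), and 0 fell by limma (3 were higher and 0 lower at an unadjusted p under 0.05). That is 12.5% called, beside 37.5% of all genes tested. Sirt6, Sirt3 and Hdac11 had changes of 0.26, 0.22 and -0.38 and did not pass. Sirt7 lost its call without GFP negative 1, GFP negative 3 or GFP positive 2, which left 0 called of the list without either of those GFP negative samples.

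The substrate pathways of the members gave further values. Of cohesin and its regulators, the HDAC8 substrate complex, 9 of 12 rose, 0 fell (also 0 at an unadjusted p under 0.05) and 3 did not pass, with a median of 0.42. Called were 75%, beside 37.5% of all genes tested. Esco2 and Stag2 rose by 0.48 and 0.42, Smc1a by 0.38 and Pds5b by 0.41 (0.27 with 32 added). Smc3, the HDAC8 substrate itself, named here for its role, read 7.53 and 7.61 and did not pass (change 0.08, limma adjusted p = 0.471). A second Esco2 probe set changed by -0.27. The number called was 5 without GFP negative 2 and 2 without GFP negative 1 and GFP positive 3.

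Of HDAC6 substrates and partners, 3 of 7 rose and 0 fell (1 was lower at an unadjusted p under 0.05), and the median was 0.00. The 42.9% called lies near the 37.5% of all genes tested. Cttn (cortactin) and Atat1 (the tubulin acetyltransferase that opposes HDAC6) rose from low levels of 1.77 and 1.65 to 2.62 and 2.69, changes of 0.11 and 0.14 with 32 added, where Atat1 lost its call (limma adjusted p = 0.0527), as it did without GFP negative 1 and GFP positive 3 (0.83, adjusted p = 0.115). Tuba1a, an alpha tubulin gene, rose by 0.28 and lost its call without any one of the 6 samples, with quantile normalization and with median centring (0.17, limma adjusted p = 0.226). Hsp90aa1 had a change of -0.24 and did not pass. Of polyamine genes, the HDAC10 substrate pathway, 2 of 7 rose and 2 fell, with a median of -0.23. This made 57.1% called, beside 37.5% of all genes tested. Srm (spermidine synthase) read 9.56, 9.55 and 9.58 in GFP negative and 7.77, 8.06 and 7.91 in GFP positive samples, a 3.14-fold fall (limma adjusted p = 1.1e-04). Odc1, the rate-limiting enzyme gene of polyamine synthesis, fell by 0.39, while Oaz2, an inhibitor of that enzyme, rose by 0.55 (0.31 with 32 added) and Sat1, which acetylates polyamines for breakdown, by 0.39. Odc1 lost its call without GFP negative 2, GFP negative 3 or GFP positive 2, Sat1 without any one sample but GFP positive 1, with quantile normalization (limma adjusted p = 0.0546) and with median centring (0.0614), and the number called was 2 without GFP negative 2.

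**Figure D4:**
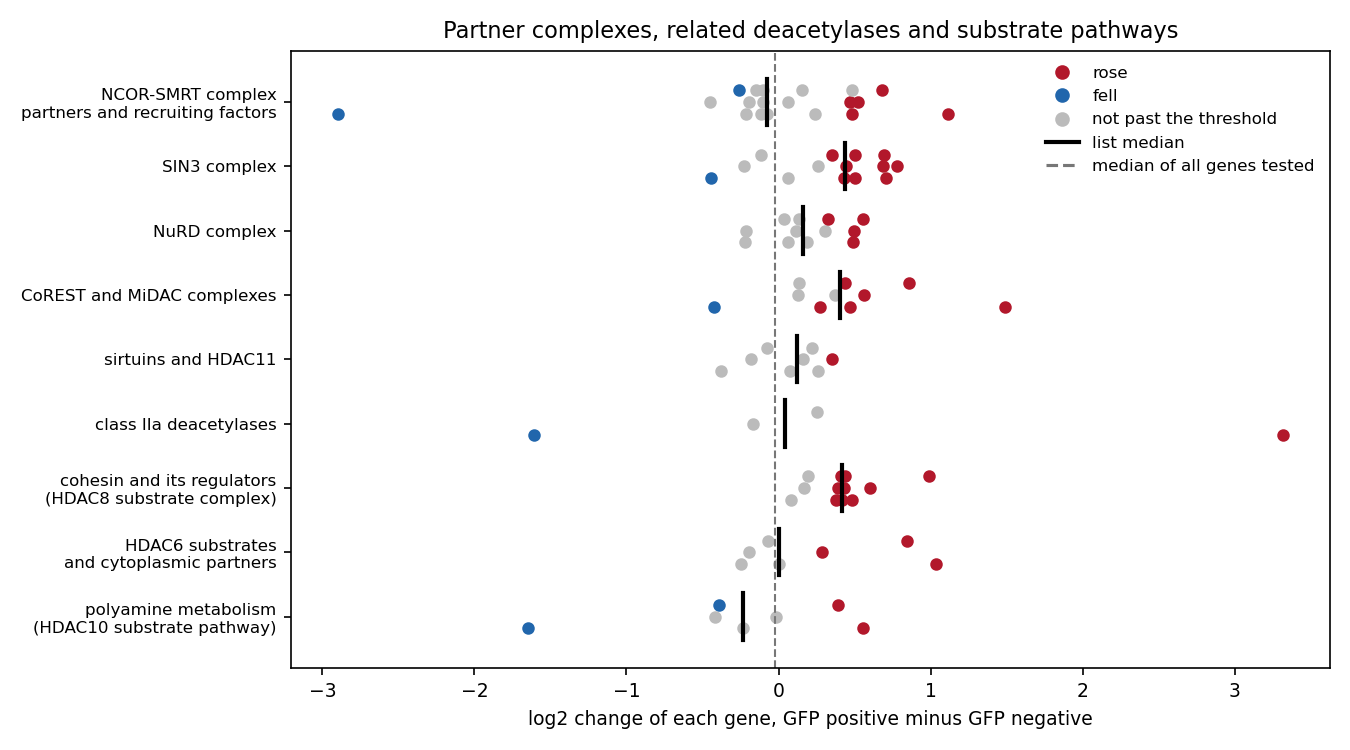
Log2 change of each tested gene in 9 lists, red where it rose, blue where it fell and grey where it did not pass, with the list median as a black bar and the median of all genes tested (-0.02) as a dashed line. The SIN3, CoREST and MiDAC, and cohesin medians lie at 0.44, 0.41 and 0.42, and Coro2a stands alone at -2.90.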

How the data were processed

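Total RNA of the 6 samples was hybridised to GeneChip mouse genome arrays, per the labels. The deposited values are log2 signals, a unit read from their range. Expression Console of Affymetrix was used, per the submitters' processing notes. The sources used here do not name the summary algorithm, background treatment or normalization. Values were used as deposited.

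Left out were 64 controls and the dimmest probe sets, those with a mean under 1.27 (percentile 40). GFP positive and negative samples were compared for 27022 probe sets with limma 3.58.1 in R 4.3.3 (lmFit, eBayes, group only, two-sided, Benjamini-Hochberg), and the procedure was tested on simulated data. Genes in lists are represented by the brightest of their probe sets.

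Named by rule are all member probe sets, those of class IIa deacetylases, and per list up to 4 genes with the smallest unadjusted p. Sap30, Rcor2, Mideas, Gps2, Smc3, Nr1d1, Rxra, Dnttip1 and Hmg20b were named after their values were seen. The members, lists and alternatives were chosen with earlier results of these data known. Alternatives were 2 scalings, 2 other filters, 32 added in linear units, 1 probe set per gene, another prior, a replicate block and left-out samples.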

Additional observations from a re-analysis of the deposited data

How the results depend on the processing

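Of 216 values of member probe sets under alternative settings, 203 kept their side of the threshold, 12 passed it newly and 1 (Hdac6) lost it. The number of member probe sets that rose was 3 in single-sample leave-one-out fits. The number that fell, 0 as deposited, was 2 with quantile normalization, 2 with median centring and 2 with a trend and robust prior, and 1 with a filter at the 60th percentile, 1 with 32 added and 1 with a single probe set per gene. Leaving out single samples gave 0 to 1. Calls over the array numbered 8786 (6269 to 9509 without single samples), against 5557 of 13194 with 1 probe set per gene. They numbered 4409 without GFP negative 1 and GFP positive 3, where 20 list entries were called, against 47 (33 to 46 without single samples). The share of calls that were higher was 59.4% as deposited, 49.9% with quantile normalization and 39.3% with median centring, which moved the median change from -0.02 to -0.14.

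Samples with the same replicate number deviated together with correlations of 0.30, 0.24 and 0.08 over probe sets tested (0.47, 0.35 and 0.25 over genes). Samples with unlike numbers gave lower values, -0.25 to 0.07 over probe sets and -0.33 to 0.04 over genes. The labels use the same biological replica numbers in both groups but state no pairing. Same-numbered samples may therefore be pairs, which the main fit leaves out and the replicate block takes in. With the replicate block 8666 probe sets and 47 list entries were called, 3 member probe sets rose and 0 fell, and no member call changed. Among list genes Nr1d1 and Dnttip1 lost their calls under the block and Rxra and Hmg20b gained one, so the equal count of 47 covers different genes. Low signals limit Hdac8 (mean 1.91), 1442312_at of Tbl1xr1 (2.05), 1434644_at of Tbl1x (2.68) and 3 untested probe sets.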
